A study of Mus musculus with 22 samples.

Results

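The last samples of a fast and a slow reprogramming course were compared, together, with embryonic stem cells, the state both courses aim at. The comparison uses 3 of the 22 samples of the series: OvSvK day 4, OSK day 7 and mESC, taken by their labels. OvSvK day 4 is fibroblasts given Klf4 and 2 fusions, Oct4-vp16 and Sox2-vp16, in which vp16 is a viral domain that activates transcription. OSK day 7 is fibroblasts given unfused Oct4, Sox2 and Klf4. Both are passage 2 mouse embryonic fibroblasts carrying the OG2 transgene, an Oct4-GFP reporter, on a mixed 129SVJ, C57B6 and CBA background, sampled 4 or 7 days after a transfection of 2 days. mESC is a culture of OG2 embryonic stem cells of that background at passage 5, and MEF is OG2 fibroblasts at passage 2, labelled wild type like mESC. The labels mark both as re-analysed libraries. Neither the vector nor the transfection method, the age and sex of the embryos, the stem cell medium and any feeder layer is given in the sources used here. The medium of OSK day 7 held bFGF, vitamin C and GSK3 inhibitors, judging from arms of the series that left these out one at a time. Every sample is 1 library, so differences between them have no replicate error and no test, and all results are values.

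Mouse embryonic stem cells hold a network of transcription factors around Oct4 (the gene Pou5f1), Sox2 and Nanog. Factors such as Esrrb, Tfcp2l1, Klf2 and Prdm14 add to it in the naive state, the state of the early epiblast of the blastocyst. Reprogramming silences fibroblast genes early and switches on the cells' own pluripotency genes late. Many genes of germ cells carry DNA methylation in somatic cells and are active in naive stem cells, where that methylation is low.

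Values are scores from the authors' table of 12897 genes, normalized so that each library has the same distribution, with a median of 374. A difference is the log2(score + 10) of an end point minus that of mESC, which understates the change of genes with low scores. A gene was called lower or higher when both end points were at least 2-fold from mESC on that scale and at least 1 of the 3 libraries had a score of 100, the floor, which 11592 genes reached. Scores are not divided by gene length, so they are compared across libraries and not across genes. The end points had 10360169 (OvSvK day 4) and 15420073 (OSK day 7) expected counts. The depth behind the mESC scores is unknown. As bulk RNA, a low value can mean fewer cells that express a gene or less RNA in each cell, and these cannot be told apart. Both end points are set against the same mESC library, so a deviation of that library enters both differences, and reads of the factors given to the cells cannot be separated from those of their native genes. mESC and MEF were quantified with an older software version and genome build than the end points, so MEF is given beside many values. In 14 genes of the table mESC and MEF both stood at least 2-fold outside the range of all 20 other libraries on one side, 1 above (Phf17) and 13 below.

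In all, 1411 genes (12.2% of those that reached the floor) were lower in both end points than in mESC, and 1599 (13.8%) were higher. Below, these shares stand beside list counts as shares of all genes. List counts run over all members with a score, and members under the floor could not be called. At a fold of 4, 536 (4.62%) were lower and 794 (6.85%) higher. OvSvK day 4 on its own had 1886 lower (16.8%) and 1859 higher (16.6%) genes, and OSK day 7 had 2358 lower (20.8%) and 2276 higher (20.1%). MEF, the cell type both courses started from, had 3051 lower (26.4%) and 2852 higher (24.7%) genes. Most of these genes lay on the fibroblast side of mESC. Of the lower genes, 1147 (81.3%) were also at least 2-fold lower in MEF than in mESC. Of the higher genes, 1148 (71.8%) were higher in MEF too. MEF is set against the same mESC library as the end points, so a deviation of that library by itself raises both shares. Of the higher genes 389 (24.3%) were under the floor in mESC and MEF alike. Of the lower genes 661 reached the floor in mESC alone, and of the higher genes 941 reached it in an end point but not in mESC.

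**Figure D1:**
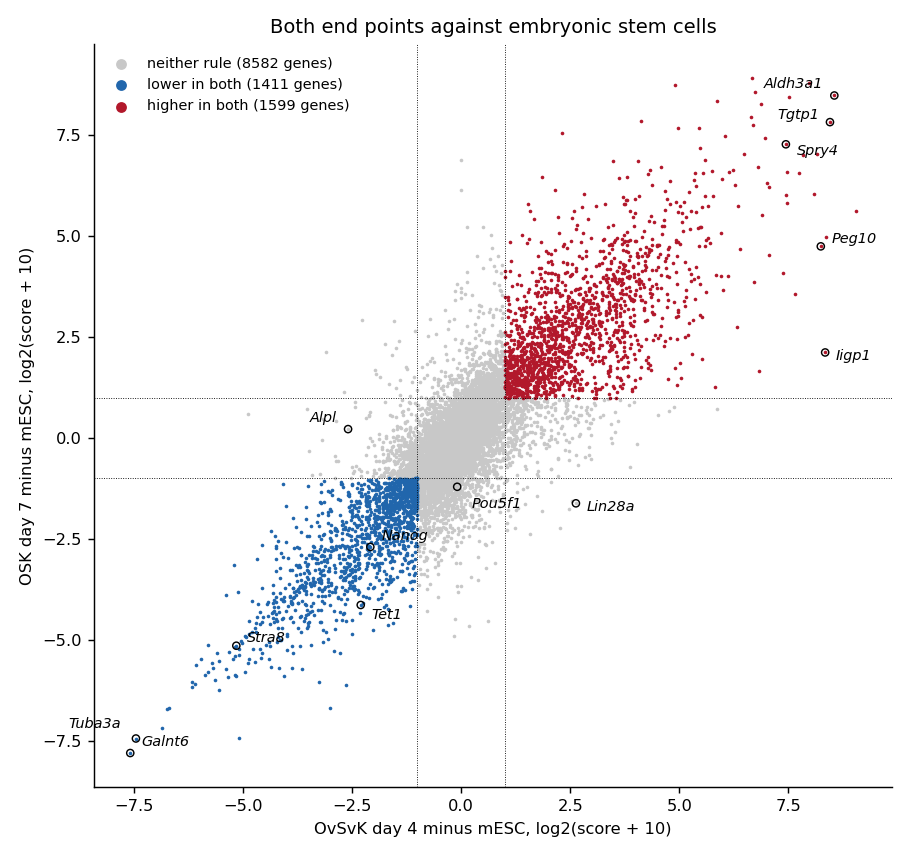
Difference from mESC in log2(score + 10) of OvSvK day 4 (x axis) and OSK day 7 (y axis), 1 point per gene that reached the floor; dotted lines mark the 2-fold limits and some genes of the text are circled. The 1411 genes lower in both (blue) and the 1599 higher in both (red) share the mESC library on both axes, which by itself spreads points along the diagonal.

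How far the end points had come was read from the genes that separate start and goal. Of 1365 genes (11.8%) at least 4-fold higher in mESC than in MEF, OvSvK day 4 was within 2-fold of mESC or above it for 431 (31.6%) and OSK day 7 for 386 (28.3%). Both end points reached it for 268 (19.6%), and neither for 816 (59.8%). Of 1569 fibroblast genes (13.6%), at least 4-fold higher in MEF than in mESC, OvSvK day 4 was within 2-fold of mESC or below it for 483 (30.8%) and OSK day 7 for 590 (37.6%). Both had for 360 (22.9%) and neither for 856 (54.6%). With each gene's log2 distance between MEF and mESC set to 100%, the median stem cell gene stood at 51.3% of the way in OvSvK day 4 and 44.2% in OSK day 7. The median fibroblast gene stood at 49% in OvSvK day 4 and 52.4% in OSK day 7. One library earlier, the median stem cell gene had stood at 37.9% on day 3 of OvSvK and at 25.2% on day 5 of OSK. Without bFGF or without GSK3 inhibitors, the day 7 OSK libraries stood at 23.6% and 21.6% for stem cell genes, and without vitamin C at 34.7%. GFP day 7, without the factors, stood at 0% for stem cell genes but at 10.7% for fibroblast genes. On day 0 fibroblast genes already stood at 11.9% in OvSvK and 16.7% in OSK.

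**Figure D2:**
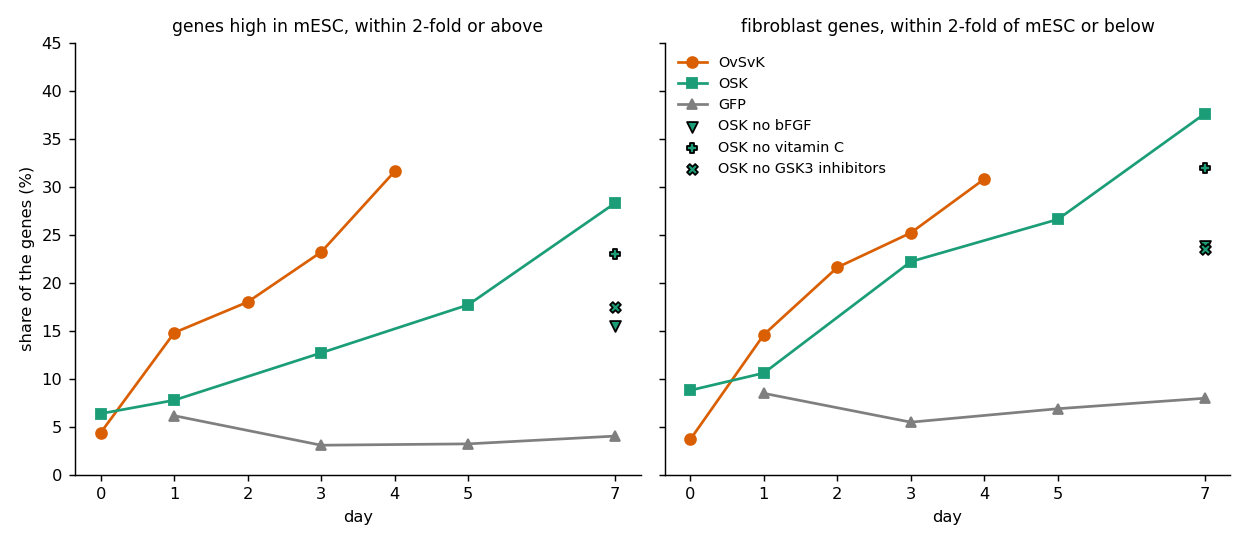
Share of genes (y axis, %) at the mESC level by day (x axis) in the OvSvK, OSK and GFP courses and in the 3 OSK day 7 libraries that lacked a medium component; left, the 1365 genes high in mESC, and right, the 1569 fibroblast genes. The end points reach 31.6% (OvSvK day 4) and 28.3% (OSK day 7) on the left and 30.8% (OvSvK day 4) and 37.6% (OSK day 7) on the right, while GFP lies between 3.08% and 6.15% on the left and between 5.48% and 8.48% on the right.

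The factors that were given to the cells stood near the mESC level, except that Pou5f1 was over 2-fold lower in OSK day 7 and Sox2 over 2-fold lower in OvSvK day 4. Pou5f1, the gene of Oct4, had a score of 9142 in OvSvK day 4 and 4192 in OSK day 7, against 9702 in mESC and 0 in MEF. Sox2 had 1893 in OvSvK day 4 and 3569 in OSK day 7, against 4260 in mESC. Klf4 had 5672 in OvSvK day 4 and 5802 in OSK day 7, against 3446 in mESC and 1140 in MEF. No such gene was at least 2-fold from mESC in both end points in the same direction.

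The naive network stood lower: 12 of its 18 listed factors were lower in both end points, against 12.2% of all genes. Of the 18 only Gbx2 was higher, against 13.8% of all genes. The median difference from mESC over the list was -2.11 in OvSvK day 4 and -2.43 in OSK day 7, against -4.84 in MEF, on a scale where the median of all genes was -0.05 in OvSvK day 4 and 0 in OSK day 7. Nanog, which stabilises the pluripotent state, had 1834 in OvSvK day 4 and 1190 in OSK day 7, against 7770 in mESC and 2 in MEF. Esrrb, an orphan nuclear receptor of the naive network, had 1106 in OvSvK day 4 and 613 in OSK day 7, against 6009 in mESC. Both genes stood far above MEF and several-fold below mESC. Tfcp2l1, a naive factor, had 2387 in OvSvK day 4 and 5314 in OSK day 7, against 18816 in mESC. Prdm14, which represses DNA methylation enzymes in naive cells, had 33 in OvSvK day 4 and 58 in OSK day 7, against 751 in mESC. Tcl1, a coactivator of Akt kinases, was the furthest from mESC in this list and had 3 in OvSvK day 4 and 8 in OSK day 7, against 793 in mESC and 0 in MEF, a difference of -5.95 in OvSvK day 4 and -5.48 in OSK day 7. Its reads were few: 8 expected counts in OvSvK day 4 and 12 in OSK day 7, or 0.772 CPM, counts scaled by the library total (95% Poisson interval 0.333 to 1.52), in OvSvK day 4 and 0.778 (0.402 to 1.36) in OSK day 7. Klf4, Sox15, Nacc1, Stat3 and Lifr, the other five of the list, were not called.

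General pluripotency genes split into members at the mESC level and members below it. Of 30, 15 were lower in both end points and none was higher, against 12.2% and 13.8% of all genes. The medians were -1.43 in OvSvK day 4, -2.39 in OSK day 7 and -6.45 in MEF. Tdh, the threonine dehydrogenase on which mouse stem cells depend for one-carbon units, had 3661 in OvSvK day 4 and 4431 in OSK day 7, against 4563 in mESC and 0 in MEF. L1td1, an RNA-binding protein derived from a retrotransposon, had 3955 in OvSvK day 4 and 7325 in OSK day 7, against 3480 in mESC. Sall4, a zinc-finger partner of Oct4, had 2052 in OvSvK day 4 and 2004 in OSK day 7, against 3997 in mESC. These members were listed at 0 in MEF and stood within 2-fold of mESC or above it. Dppa5a, a small RNA-binding protein of early embryos, had 1382 in OvSvK day 4 and 1599 in OSK day 7, against 15764 in mESC. Fgf4, the ligand by which stem cells signal to themselves, had 174 in OvSvK day 4 and 396 in OSK day 7, against 3124 in mESC. Nodal, a TGF-beta family ligand, had 122 in OvSvK day 4 and 64 in OSK day 7, against 1533 in mESC. Its inhibitors were lower as well, and Lefty2 had 210 in OvSvK day 4 and 33 in OSK day 7, against 1644 in mESC. Triml2 had 24 in OvSvK day 4 and 12 in OSK day 7, against 814 in mESC, and Spp1, a secreted phosphoprotein, had 2518 in OvSvK day 4 and 922 in OSK day 7, against 7804 in mESC and 9150 in MEF.

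Genes of the primed epiblast, the later pluripotent state, gave a mixed picture in 9 members. Otx2, Foxd3, Zic2 and Zic5 were lower in both end points, against 12.2% of all genes, and Sox4 was higher, against 13.8%. Zic2 had 130 in OvSvK day 4 and 50 in OSK day 7, against 783 in mESC and 20 in MEF. The list of genes of the two-cell-like state could hardly be read, since 3 of its 20 genes were in the table. These 3, Zscan4f, Ubtfl1 and Pramel7, reached the floor in mESC alone. Zscan4f, a telomere regulator with near-identical copies between which reads may be split, was listed at 0 in both end points, against 156 in mESC.

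**Figure D3:**
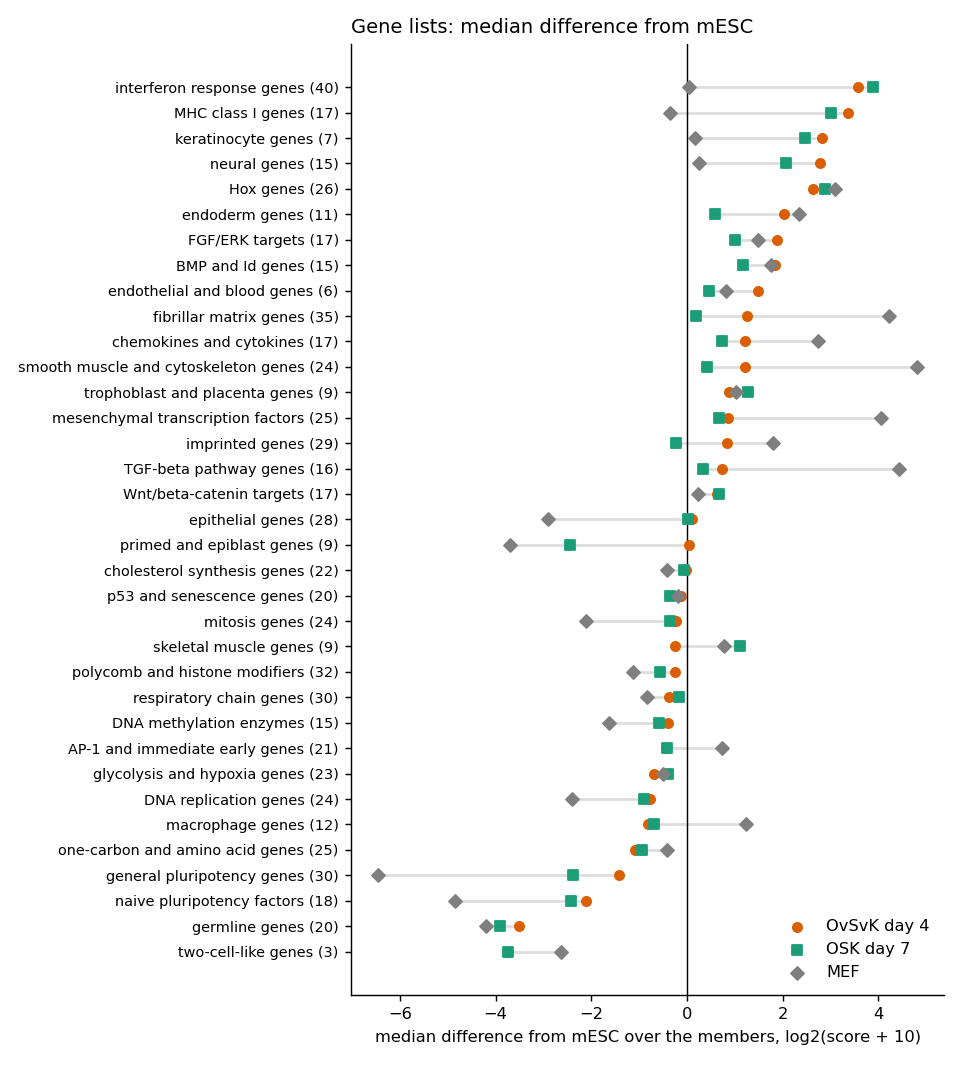
Median difference from mESC in log2(score + 10) (x axis) over the members of each gene list (y axis, number of members in the table in brackets) in OvSvK day 4, OSK day 7 and MEF; the vertical line at 0 is the mESC level. The germline list stays near the MEF value (-3.52 in OvSvK day 4, -3.9 in OSK day 7 and -4.21 in MEF), naive factors lie between MEF and mESC (-2.11, -2.43 and -4.84 in the same libraries), and interferon response genes lie above both MEF and mESC (3.58, 3.88 and 0.05).

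Germline genes stood near their MEF level in both end points. Of 37 listed genes 20 were in the table. Of these 17 were lower in both end points than in mESC and none was higher, against 12.2% and 13.8% of all genes. The median difference was -3.52 in OvSvK day 4 and -3.9 in OSK day 7, beside -4.21 in MEF. Of the 20, 15 reached the floor in mESC alone and all 15 were called, against 661 of the 834 genes of the table that did so. Dazl, an RNA-binding protein of germ cells, had 28 in OvSvK day 4 and 12 in OSK day 7, against 776 in mESC and 33 in MEF. Tex19.1, which restrains retrotransposons in germ cells, had 120 in OvSvK day 4 and 62 in OSK day 7, against 1464 in mESC and 0 in MEF, and stood above MEF. Stra8, the retinoic acid target at meiotic entry, was listed at 0 in both end points, against 344 in mESC. Hormad1, a protein of the meiotic chromosome axis, had 0 in OvSvK day 4 and 6 in OSK day 7, against 548 in mESC. Kit, the receptor for stem cell factor in germ cells, had 708 in OvSvK day 4 and 438 in OSK day 7, against 3102 in mESC and 8 in MEF. Sycp1, Piwil2 and Dnmt3l were not called, and Piwil2, a binder of piRNAs, had 218 in OvSvK day 4 and 102 in OSK day 7, against 48 in mESC.

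These genes were below mESC before and without reprogramming too. Counted library by library, 17 of the 20 were lower than mESC in OvSvK day 4 and 19 in OSK day 7, and 19 were lower in GFP day 7, in MEF and on day 0 of OvSvK and of OSK. The share over all genes was 28% in GFP day 7, 25.9% on day 0 of OvSvK and 28.5% on day 0 of OSK. The read counts of the end points bound what could have been missed. Hormad1 had 0 expected counts in OvSvK day 4, which allows 0.29 CPM at a limit of 3 counts, and had 1 in OSK day 7. Stra8 had 1 expected count in OvSvK day 4 and 0 in OSK day 7, which allows 0.195 CPM. Such intervals and limits cover counting error only.

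CpG dinucleotides are where mammalian DNA is methylated, and many germline promoters are known to be controlled through them. The 250 bases before the start of 3 of the lower germline genes are given for that reason, with every CpG in capitals, each written 5′ to 3′ on the gene's own strand (RefSeq, GRCm38). Hormad1 lies at chr3:95559427-95559676 on the plus strand, Tdrd12, a piRNA pathway protein, at chr7:35537745-35537994 on the minus strand, and Fkbp6, a chaperone of the same pathway, at chr5:135350045-135350294 on the minus strand.
Hormad1: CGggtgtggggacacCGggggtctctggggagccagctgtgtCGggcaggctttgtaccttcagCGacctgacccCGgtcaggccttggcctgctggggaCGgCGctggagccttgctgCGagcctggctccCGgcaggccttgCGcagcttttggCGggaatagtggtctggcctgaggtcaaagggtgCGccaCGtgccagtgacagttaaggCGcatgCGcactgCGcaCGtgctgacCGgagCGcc
Tdrd12: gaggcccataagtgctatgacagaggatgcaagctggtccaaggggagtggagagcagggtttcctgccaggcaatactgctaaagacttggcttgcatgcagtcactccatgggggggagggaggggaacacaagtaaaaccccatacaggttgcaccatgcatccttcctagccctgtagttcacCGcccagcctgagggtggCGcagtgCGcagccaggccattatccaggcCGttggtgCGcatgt
Fkbp6: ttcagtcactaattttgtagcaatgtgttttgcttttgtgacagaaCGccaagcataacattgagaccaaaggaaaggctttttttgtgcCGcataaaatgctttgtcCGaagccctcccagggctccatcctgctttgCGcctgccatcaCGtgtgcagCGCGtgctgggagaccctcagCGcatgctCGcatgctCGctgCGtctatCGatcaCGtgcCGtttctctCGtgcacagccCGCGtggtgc
The 3 windows hold 19, 5 and 17 CpGs. Over the 16 called germline genes with a promoter in the RefSeq table the median was 15, against 16 over 8581 genes that reached the floor. No methylation was measured.

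Of 15 genes that set, read or remove DNA methylation 2, Tet1 and Tet2, were lower and 1, Uhrf2, was higher, against 12.2% of all genes lower and 13.8% higher. The lower count was near the share over all genes, the higher count was below it, and 12 genes were called in neither direction. TET proteins oxidise methylated cytosine and so help to remove it. Tet1 had 1423 in OvSvK day 4 and 390 in OSK day 7, against 7047 in mESC and 109 in MEF, a difference of -2.3 in OvSvK day 4 and -4.14 in OSK day 7. Tet2 had 968 in OvSvK day 4 and 1266 in OSK day 7, against 2690 in mESC and 268 in MEF. Both stood above MEF. The third TET gene, Tet3, was not called and had 1256 in OvSvK day 4 and 1022 in OSK day 7, against 552 in mESC and 1456 in MEF. Dnmt1, which copies methylation at replication, had 4632 in OvSvK day 4 and 3148 in OSK day 7, against 7031 in mESC. Dnmt3b, which sets new methylation, had 1634 in OvSvK day 4 and 282 in OSK day 7, against 1590 in mESC and 66 in MEF. Dnmt3l, its cofactor, had 106 in OvSvK day 4 and 19 in OSK day 7, against 107 in mESC and 3 in MEF. In both genes OvSvK day 4 was near mESC and OSK day 7 was lower. With the end points re-made from their expected counts 1 of the 15 genes, not 2, was lower.

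Polycomb and histone modifier genes were mostly at the mESC level: of 32, 5 were lower and 2 higher, against a background of 12.2% and 13.8%. Mtf2, a polycomb subunit that guides the complex to CpG islands, had 1421 in OvSvK day 4 and 1280 in OSK day 7, against 5045 in mESC. Kdm5b, an H3K4 demethylase, had 2240 in OvSvK day 4 and 1094 in OSK day 7, against 8039 in mESC. Cbx7, the polycomb reader of stem cells, had 348 in OvSvK day 4 and 147 in OSK day 7, against 1420 in mESC and 40 in MEF. Ezh2, the H3K27 methyltransferase, was within 2-fold and had 1620 in OvSvK day 4 and 1454 in OSK day 7, against 1940 in mESC and 314 in MEF.

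Mitosis genes stood at the stem cell level. None of 24 mitosis genes was called in either direction, with medians of -0.23 in OvSvK day 4, -0.35 in OSK day 7 and -2.12 in MEF. Mki67, the proliferation antigen, had 6774 in OvSvK day 4 and 4202 in OSK day 7, against 5589 in mESC and 1446 in MEF. All 24 mitosis genes were lower than mESC in GFP day 7 and in MEF. Of 24 DNA replication genes 4 were lower, near the 12.2% of all genes, and none was higher. The median member still lay below mESC, short of the 2-fold limit. The medians were -0.78 in OvSvK day 4, -0.89 in OSK day 7 and -2.41 in MEF. Over all genes they were -0.05 in OvSvK day 4 and 0 in OSK day 7. Mcm3, a subunit of the replicative helicase, had 2789 in OvSvK day 4 and 2406 in OSK day 7, against 5916 in mESC. Of 20 genes of the p53 pathway and senescence, 3 (Mdm2, Bbc3 and Gdf15) were lower, again near that share, and none was higher. Cdkn1a, the p53 target that arrests the cycle, had 5434 in OvSvK day 4 and 6168 in OSK day 7, against 4092 in mESC.

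Genes of one-carbon and amino acid metabolism, which feed nucleotide synthesis and methylation, were lower in both end points for 12 of 25 members, against 12.2% of all genes, and higher for 2. Gldc, which cleaves glycine, had 190 in OvSvK day 4 and 42 in OSK day 7, against 1642 in mESC and 12 in MEF. Amt, of the same enzyme complex, had 160 in OvSvK day 4 and 134 in OSK day 7, against 974 in mESC and 3 in MEF. Asns, asparagine synthetase, had 1506 in OvSvK day 4 and 1188 in OSK day 7, against 8060 in mESC and 2612 in MEF. Asns was lower in the end points than in either re-analysed library, while Gldc and Amt lay between them. With the gap between MEF and the GFP libraries removed from every difference, 6 of the 25 were lower, and Trib3 and Chac1, targets of the stress factor Atf4, turned round to differences of 0.86 and 0.4. In other parts of metabolism 4 of 23 glycolysis and hypoxia genes, 2 of 30 respiratory chain genes and 1 of 22 cholesterol synthesis genes were lower, against 12.2% of all genes, and none was higher. Slc2a3, a glucose transporter, had 8390 in OvSvK day 4 and 3855 in OSK day 7, against 18680 in mESC and 101 in MEF.

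Immediate early genes, which growth factors and handling switch on within minutes, were lower in both end points for 7 of 21 members, against 12.2% of all genes, and higher for 2, against 13.8%. Fos had 40 in OvSvK day 4 and 198 in OSK day 7, against 1018 in mESC and 292 in MEF. Fosb had 16 in OvSvK day 4 and 4 in OSK day 7, against 400 in mESC and 79 in MEF. Egr1 had 326 in OvSvK day 4 and 774 in OSK day 7, against 3326 in mESC and 3498 in MEF, so mESC and MEF were alike and both end points lay below them. With the gap between MEF and the GFP libraries removed, 2 of the 21 were lower, and Egr1 and Egr2 turned round to differences of 1.44 and 0.16.

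Interferon response genes were far higher in both end points than in either mESC or MEF. Of 40 listed genes, 32 were higher in both end points, against 13.8% of all genes, and none was lower, against 12.2%. The medians were 3.58 in OvSvK day 4 and 3.88 in OSK day 7, against 0.05 in MEF. Of the 32, 23 reached the floor in an end point and not in mESC. Isg15, a ubiquitin-like protein attached to other proteins, had 742 in OvSvK day 4 and 1360 in OSK day 7, against 8 in mESC and 48 in MEF. Tgtp1, a GTPase against intracellular pathogens with a near-identical copy in Tgtp2, had 9111 in OvSvK day 4 and 5888 in OSK day 7, against 16 in mESC and 24 in MEF. The end points stood above both re-analysed libraries in each case. Irf7, which amplifies the response, had 638 in OvSvK day 4 and 1404 in OSK day 7, against 38 in mESC, and the RNA sensor Ifih1 had 470 in OvSvK day 4 and 558 in OSK day 7, against 28 in mESC. The gap between the end points varied among the guanylate-binding and immunity-related GTPases. Irgm1 had 7054 in OvSvK day 4 and 5916 in OSK day 7, against 147 in mESC and 882 in MEF, and Gbp3 had 3198 in OvSvK day 4 and 1422 in OSK day 7, against 5 in mESC and 37 in MEF. At the other extreme Iigp1 had 5808 in OvSvK day 4 and 68 in OSK day 7, against 8 in mESC, and Gbp4 had 4424 in OvSvK day 4 and 114 in OSK day 7, against 29 in mESC. Mx1, Mx2, Oas1a, Oas1g, Oasl1, Irf1, Cxcl10 and Trim25 were not called.

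More of these genes were above mESC on the later days of both courses, and many were in the GFP libraries. The number of the 40 genes at least 2-fold above mESC was 3, 4, 25, 33 and 32 on days 0, 1, 2, 3 and 4 of OvSvK. It was 3, 8, 31, 33 and 33 on days 0, 1, 3, 5 and 7 of OSK. In GFP it was 11, 21, 23 and 24 on days 1, 3, 5 and 7, and in MEF it was 6. Over all genes the share above mESC was 24.2%, 20.4%, 20%, 19.2% and 16.6% on those days of OvSvK, 27.7%, 24.5%, 23.7%, 22.5% and 20.1% on those of OSK and 25.1%, 26.1%, 26.4% and 27.1% on those of GFP. With the gap between MEF and the GFP libraries removed from every difference, 17 of the 40 were higher in both end points and 2 were lower.

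Genes of antigen presentation by MHC class I were higher as well, 16 of 17 listed, against 13.8% of all genes, and none was lower. B2m, the constant chain of the complex, had 18816 in OvSvK day 4 and 10312 in OSK day 7, against 352 in mESC and 1934 in MEF. Psmb8, a catalytic subunit of the immunoproteasome, had 1578 in OvSvK day 4 and 890 in OSK day 7, against 2 in mESC and 26 in MEF. Nlrc5, the activator of class I genes, had 1884 in OvSvK day 4 and 254 in OSK day 7, against 8 in mESC. H2-K1 had 8779 in OvSvK day 4 and 6536 in OSK day 7, against 855 in mESC and 345 in MEF, with the caution that class I heavy chains are similar enough for reads to be split among them. After the gap between MEF and GFP was removed 10 of the 17 were higher. Of 12 genes of macrophages, another cell type that responds to interferon, 1 (Lyz2) was lower and 1 (Mpeg1) higher. Only 6 of them reached the floor in OvSvK day 4, OSK day 7 or mESC, too few to set beside the 12.2% and 13.8% of all genes. Of the 12, 3 reached the floor in OvSvK day 4, 3 in OSK day 7, 5 in mESC and 9 in MEF. C1qa and C1qb were listed at 0 in both end points, and Csf1r, the receptor that defines the lineage, had 2 in OvSvK day 4 and 8 in OSK day 7, against 12 in mESC and 190 in MEF. Other members had higher scores. Laptm5, a lysosomal protein of blood cells, had 913 in OvSvK day 4 and 622 in OSK day 7, against 1556 in mESC and 126 in MEF. Mpeg1, a pore-forming protein, had 860 in OvSvK day 4 and 158 in OSK day 7, against 40 in mESC and 200 in MEF. Itgam, an integrin of myeloid cells, had 342 in OvSvK day 4 and 464 in OSK day 7, against 489 in mESC and 348 in MEF. The part of such cells in the result was not tested.

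Interferon-activated factors bind a short element, the ISRE, in the promoters of their targets. Promoters of 3 of the higher interferon response genes are given to show it, with each match on either strand in capitals. They were chosen among promoters that held a match, so that each holds one was fixed by the choice. A match was TTTC, then any 2 bases, then TTTC again (RefSeq, GRCm38, 5′ to 3′ on the gene's strand, 250 bases before the start). Overlapping matches run together. Gbp3, a guanylate-binding protein, lies at chr3:142559794-142560043 on the plus strand, Isg15 at chr4:156200819-156201068 on the minus strand and Gbp2 at chr3:142620413-142620662 on the plus strand.
Gbp3: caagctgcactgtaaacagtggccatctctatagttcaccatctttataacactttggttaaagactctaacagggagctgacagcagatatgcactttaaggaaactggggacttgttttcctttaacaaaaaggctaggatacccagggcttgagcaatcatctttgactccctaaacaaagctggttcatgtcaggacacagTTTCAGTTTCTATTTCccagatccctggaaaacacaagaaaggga
Isg15: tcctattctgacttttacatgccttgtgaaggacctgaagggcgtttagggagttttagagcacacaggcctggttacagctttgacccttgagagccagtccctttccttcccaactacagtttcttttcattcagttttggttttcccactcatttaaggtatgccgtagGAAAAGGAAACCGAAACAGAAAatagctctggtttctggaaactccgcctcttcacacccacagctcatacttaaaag
Gbp2: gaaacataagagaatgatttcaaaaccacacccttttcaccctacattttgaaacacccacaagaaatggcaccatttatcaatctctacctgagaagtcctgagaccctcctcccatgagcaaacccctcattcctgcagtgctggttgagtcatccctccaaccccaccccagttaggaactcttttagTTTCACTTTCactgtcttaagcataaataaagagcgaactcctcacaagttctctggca
The windows hold 2, 3 and 1 matches. Of the 23 higher interferon response genes with a promoter in the RefSeq table, 14 (60.9%) held at least 1 match. The share was 2.68% over all 8581 promoters, 4.8% over the 1125 of genes higher in both end points and 2.45% over the 981 of genes lower in both. Among the higher MHC class I genes it was 3 of 14 (21.4%), and among the called germline genes 0 of 16. Genes that respond to interferon are listed partly because they carry such elements, so a match describes the list and is not evidence of binding.

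**Figure D4:**
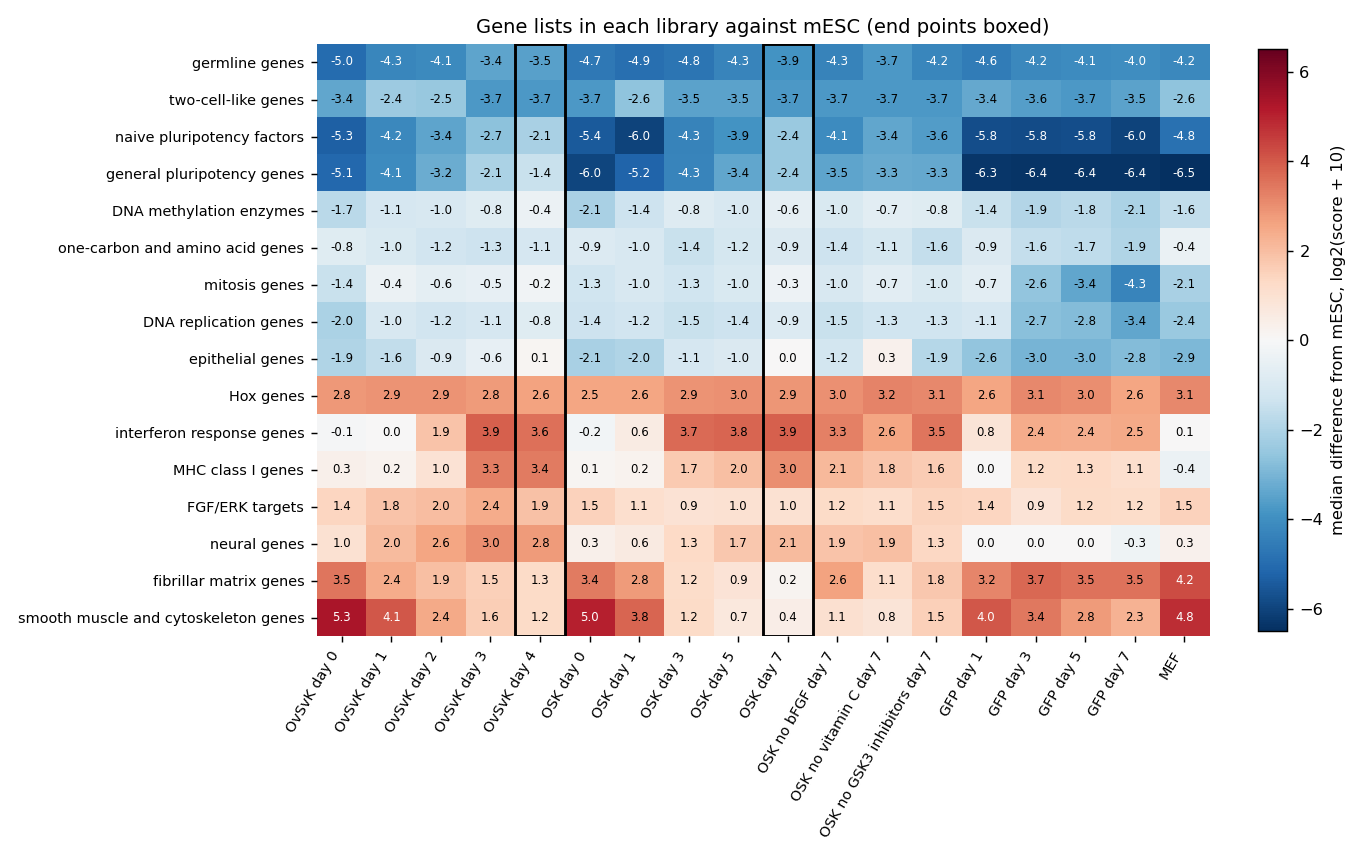
Median difference from mESC in log2(score + 10), as colour and number, of gene lists (down the page) in the libraries of the OvSvK, OSK and GFP courses, the day 7 omissions and MEF (across), with OvSvK day 4 and OSK day 7 boxed. Naive factors go from -5.31 on day 0 to -2.11 along OvSvK and from -5.44 on day 0 to -2.43 along OSK, the Hox list lies between 2.55 (OSK day 0) and 3.23 (OSK without vitamin C, day 7) in the libraries shown, and interferon response genes end at 3.58 in OvSvK day 4 and 3.88 in OSK day 7.

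Hox genes, which record position along the body axis and are silent in stem cells, stood near their fibroblast levels. Of 26 members 17 were higher in both end points and none lower, against 13.8% and 12.2% of all genes. Of the 26, 20 reached the floor, and the medians were 2.63 in OvSvK day 4, 2.88 in OSK day 7 and 3.1 in MEF. Hoxa9 had 364 in OvSvK day 4 and 452 in OSK day 7, against 9 in mESC and 94 in MEF. Hoxc8 had 251 in OvSvK day 4 and 250 in OSK day 7, against 15 in mESC and 490 in MEF. Hoxa9 lay above its MEF level in both end points and Hoxc8 below it. All 17 reached the floor in an end point and not in mESC. Hoxb9 had 212 in OvSvK day 4 and 203 in OSK day 7, against 334 in mESC and 1284 in MEF.

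The median fibroblast matrix gene stood far below MEF. Some members did not, such as Col3a1 (26738 in OvSvK day 4 and in MEF, 9150 in OSK day 7). Of 35, 12 were higher in both end points than in mESC, against 13.8% of all genes, and 3 were lower, against 12.2%. The medians were 1.26 in OvSvK day 4 and 0.19 in OSK day 7, against 4.22 in MEF. Col1a1, the main fibrillar collagen chain, had 13640 in OvSvK day 4 and 4700 in OSK day 7, against 5672 in mESC and 58542 in MEF. Thbs2, a matrix glycoprotein, had 7325 in OvSvK day 4 and 2951 in OSK day 7, against 341 in mESC, and Vim, the filament protein of mesenchymal cells, had 21348 in OvSvK day 4 and 58542 in OSK day 7, against 2344 in mESC and 21348 in MEF. A score of 58542 is the top value of every library, shared by several genes, so differences at that value are not resolved. The mESC library itself held transcripts of this list: 28 of the 35 genes reached the floor in it, 30 in OvSvK day 4, 27 in OSK day 7 and 35 in MEF. Lox, a collagen cross-linking enzyme, had 400 in OvSvK day 4 and 292 in OSK day 7, against 824 in mESC and 58542 in MEF. Mfap4, a microfibril protein, had 1 in OvSvK day 4 and 4 in OSK day 7, against 225 in mESC and 1738 in MEF. In all 37 genes lower in both end points were at least 2-fold above mESC in MEF. Whether fibroblasts in the mESC culture gave these values was not tested.

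Mesenchymal transcription factors and cytoskeletal genes showed a remainder of the same kind. Of 25 mesenchymal factors 8 were higher and 1 (Osr2) lower, against 13.8% and 12.2% of all genes. Only 14 of the 25 reached the floor, and all 8 higher ones reached it in an end point and not in mESC. The medians were 0.86 in OvSvK day 4 and 0.68 in OSK day 7, against 4.06 in MEF. Twist1, a driver of the mesenchymal state, had 632 in OvSvK day 4 and 587 in OSK day 7, against 30 in mESC and 920 in MEF. Prrx1, a homeobox factor of limb mesenchyme, had 1589 in OvSvK day 4 and 1696 in OSK day 7, against 92 in mESC and 8039 in MEF. Foxd1 had 866 in OvSvK day 4 and 4922 in OSK day 7, against 5 in mESC and 274 in MEF, which put both end points above MEF. Of 24 smooth muscle and cytoskeleton genes 10 were higher and 1 (Des) lower, against 13.8% and 12.2% of all genes. Cnn1, a contractile protein, had 3 in OvSvK day 4 and 0 in OSK day 7, against 0 in mESC and 3174 in MEF. Among annexins and S100 proteins, which bind calcium, Anxa2 had 11548 in OvSvK day 4 and 21356 in OSK day 7, against 300 in mESC and 10979 in MEF, and S100a6 had 5896 in OvSvK day 4 and 3870 in OSK day 7, against 276 in mESC and 8036 in MEF. With the gap between MEF and GFP removed the higher count of this list was 16.

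Among signalling pathways, FGF/ERK targets were higher in both end points for 8 of 17 genes, against 13.8% of all genes, and lower for 2, against 12.2%. Their median difference from mESC was 1.89 in OvSvK day 4 and 1.01 in OSK day 7, beside 1.48 in MEF. Spry4, an inhibitor that ERK signalling induces, had 2080 in OvSvK day 4 and 1852 in OSK day 7, against 2 in mESC and 648 in MEF. Dusp6, a phosphatase of ERK, had 1452 in OvSvK day 4 and 1396 in OSK day 7, against 192 in mESC and 794 in MEF. Ccnd1, the G1 cyclin, had 12738 in OvSvK day 4 and 12738 in OSK day 7, against 1894 in mESC and 5292 in MEF. Spry1 was lower and had 85 in OvSvK day 4 and 64 in OSK day 7, against 211 in mESC and 1170 in MEF, and Egr1 was lower too. Etv5, another ERK target, had 4152 in OvSvK day 4 and 2980 in OSK day 7, against 4372 in mESC. bFGF activates this pathway and was part of the OSK medium, but the medium of the mESC is not given, so medium and cell state cannot be told apart.

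The same shares, 13.8% higher and 12.2% lower, stand beside the counts of the other pathways. Of 17 Wnt/beta-catenin targets 5 were higher and none lower. Their median difference was 0.63 in OvSvK day 4 and 0.68 in OSK day 7, beside 0.24 in MEF. Nkd1, an inhibitor induced by Wnt, had 1176 in OvSvK day 4 and 628 in OSK day 7, against 9 in mESC and 128 in MEF, and Ccnd2 had 15726 in OvSvK day 4 and 9671 in OSK day 7, against 314 in mESC and 58542 in MEF. Axin2, the most used reporter of the pathway, had 986 in OvSvK day 4 and 768 in OSK day 7, against 284 in mESC and 95 in MEF, and turned round to a difference of -1.42 with the gap between MEF and GFP removed. Of 15 BMP and Id genes 7 were higher and 2 (Bmp7 and Smad7) lower. Their median difference was 1.84 in OvSvK day 4 and 1.17 in OSK day 7, beside 1.76 in MEF. Id1, which BMP signals induce, had 352 in OvSvK day 4 and 207 in OSK day 7, against 26 in mESC and 278 in MEF. With a pseudocount of 50, or with re-made end points, 4 of the 15 were higher. Of 16 TGF-beta pathway genes 6 were higher and 2 lower, the second count being near the share over all genes. Their median difference was 0.73 in OvSvK day 4 and 0.34 in OSK day 7, beside 4.43 in MEF. Of 17 chemokines and cytokines 5 were higher and 1 lower, and that gene, Lif, the ligand that maintains mouse stem cells, had 271 in OvSvK day 4 and 190 in OSK day 7, against 680 in mESC and 450 in MEF.

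**Figure D5:**
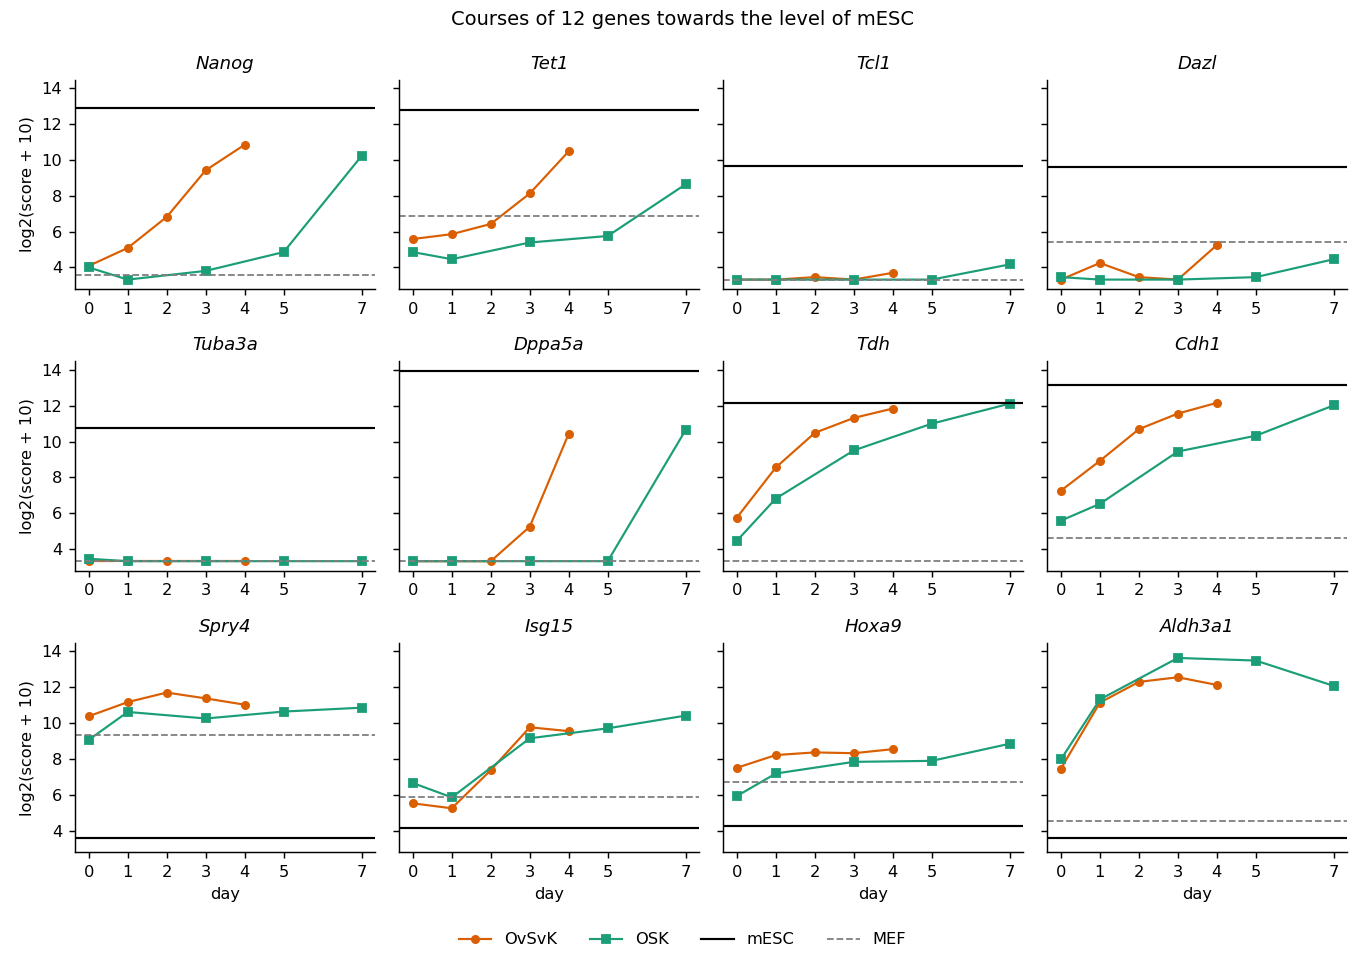
Level in log2(score + 10) (y axis) by day (x axis) of 12 genes in the OvSvK and OSK courses, with mESC as a solid and MEF as a dashed line. Nanog, Tet1 and Dppa5a climb but end below mESC (Nanog scores 1834 in OvSvK day 4 and 1190 in OSK day 7, against 7770 in mESC), Tdh ends near it, Cdh1 ends about 2-fold below it, Tcl1, Dazl and Tuba3a stay near the MEF line, and Spry4, Isg15, Hoxa9 and Aldh3a1 end above mESC.

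Epithelial genes went both ways. Of 28, 7 were lower, against 12.2% of all genes, and 5 were higher, against 13.8%, and the medians were 0.11 in OvSvK day 4 and 0.03 in OSK day 7, against -2.91 in MEF. Cdh1, the adhesion protein of epithelia, had 4563 in OvSvK day 4 and 4152 in OSK day 7, against 9166 in mESC and 15 in MEF. The other lower genes were the junction genes Cldn3, Cldn4, Ocln, Tjp3, Dsg2 and Dsc2. Cldn4, a tight junction protein, had 518 in OvSvK day 4 and 358 in OSK day 7, against 1654 in mESC and 3 in MEF, and Dsg2, a desmosomal cadherin, had 562 in OvSvK day 4 and 498 in OSK day 7, against 1955 in mESC and 4 in MEF. Epcam, another surface marker, was not called and had 2111 in OvSvK day 4 and 2525 in OSK day 7, against 1074 in mESC. Keratins were among the 5 higher genes, which all reached the floor in an end point and not in mESC. Krt8 had 711 in OvSvK day 4 and 652 in OSK day 7, against 13 in mESC and 1 in MEF, and Krt19 had 204 in OvSvK day 4 and 160 in OSK day 7, against 2 in mESC and 90 in MEF. Of 18 keratinocyte genes listed 7 were in the table. Of these Krt14, Krt6a, Lgals7 and Perp were higher, against 13.8% of all genes. All 4 reached the floor in an end point and not in mESC. Krt14 had 446 in OvSvK day 4 and 29 in OSK day 7 and was listed at 0 in mESC and MEF.

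Genes of other lineages were counted beside the 13.8% of all genes that were higher and the 12.2% that were lower. Of 15 neural genes, 9 were higher and none lower, with medians of 2.78 in OvSvK day 4 and 2.08 in OSK day 7, against 0.26 in MEF. Neurog2, a factor of neuron formation, had 88 in OvSvK day 4 and 546 in OSK day 7 and was listed at 0 in mESC and MEF. Nes, an intermediate filament of neural progenitors that fibroblasts also express, had 10266 in OvSvK day 4 and 4412 in OSK day 7, against 891 in mESC and 4086 in MEF. Sox1, an early neural factor, had 208 in OvSvK day 4 and 692 in OSK day 7, against 88 in mESC and 1 in MEF. Of 11 endoderm genes 4 (Dab2, Col4a1, Col4a2 and Sparc) were higher and 1 (Hhex) lower. The 4 were all high in MEF, while Gata6, a factor of primitive endoderm, had 49 in OvSvK day 4 and 7 in OSK day 7, against 20 in mESC. Of 9 trophoblast and placenta genes 3 were higher and 1 (Esx1) lower, of 9 skeletal muscle genes 1 was higher and 2 were lower, and of 6 endothelial and blood genes 2 were higher and 1 (Pecam1) was lower. Lists this short say little beside those shares, and only 4 of the 9 skeletal muscle genes reached the floor. Hbb-y, an embryonic globin, had 125 in OvSvK day 4 and 552 in OSK day 7 and was listed at 0 in mESC and MEF.

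Imprinted genes, expressed from one parental copy, were mostly not called. Of 29, 7 were higher and 5 lower, against 13.8% and 12.2% of all genes, and 17 were called in neither direction. Peg10, a retrotransposon-derived gene of the placenta, had 58542 in OvSvK day 4 and 5200 in OSK day 7, against 184 in mESC and 1046 in MEF. Nnat had 1140 in OvSvK day 4 and 1438 in OSK day 7, against 65 in mESC and 314 in MEF. Slc38a4, an amino acid transporter, had 379 in OvSvK day 4 and 20 in OSK day 7, against 3109 in mESC and 1906 in MEF, and Usp29 was listed at 0 in both, against 188 in mESC and 4 in MEF. Of the genes at the best-known domains, H19 had 6158 in OvSvK day 4 and 2832 in OSK day 7, against 4186 in mESC and 15745 in MEF, and Meg3 had 5042 in OvSvK day 4 and 2436 in OSK day 7, against 3570 in mESC and 3300 in MEF, neither being called. With the gap between MEF and GFP removed the counts were 12 higher and 3 lower. Xist, the RNA that silences an X chromosome in female cells, had 12719 in OvSvK day 4 and 344 in OSK day 7, against 207 in mESC and 3292 in MEF. The Y-linked Ddx3y had 338 in OvSvK day 4 and 1246 in OSK day 7, against 1268 in mESC and 672 in MEF. Xist and Ddx3y therefore differed between the end points in opposite directions, and the mix of male and female cells in each library is not given.

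Over the chromosomes, lower genes made up from 9.09% (chromosome 3) to 16.2% (chromosome 7) of the autosomal genes that reached the floor. Higher genes made up from 9.23% (chromosome 4) to 19.8% (chromosome 3) of those autosomal genes. On the X chromosome 59 of 435 (13.6%) were lower and 81 (18.6%) higher, both within the autosomal ranges.

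The genes furthest below mESC were a group that both end points and MEF lacked. Galnt6, a glycosyltransferase that starts O-linked sugar chains (chr15:100691813-100729376, mm10), had 4 in OvSvK day 4 and 2 in OSK day 7, against 2676 in mESC and 19 in MEF. Tuba3a, an alpha-tubulin with a near-identical copy, had 0 in OvSvK day 4 and 0 in OSK day 7, against 1742 in mESC and 0 in MEF. Sohlh2, a germ cell transcription factor, had 1 in OvSvK day 4 and 1 in OSK day 7, against 744 in mESC, and Aurkc, the meiotic Aurora kinase, had 1 in OvSvK day 4 and 2 in OSK day 7, against 780 in mESC. Hsf2bp, a meiotic recombination protein, had 2 in OvSvK day 4 and 2 in OSK day 7, against 656 in mESC, and D1Pas1, a testis RNA helicase, had 1 in OvSvK day 4 and 5 in OSK day 7, against 730 in mESC. Each of these was at or near 0 in MEF. Of the 15 with the largest difference in the nearer end point, Pnma5, Xlr3c, Xlr5a, Rps2-ps13, DXBay18, 1700013H16Rik and RP23-95K12.12 lie on the X chromosome. Of these Xlr3c, Xlr5a and DXBay18 have near copies and Rps2-ps13 is a pseudogene, so their reads depend on how copies were counted in the older and the newer version of the software. Smtnl1 and Hydin complete the 15. In all, 145 lower genes (10.3%) had a score of 10 or less in both end points.

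The genes furthest above mESC came from several functions. Aldh3a1, an aldehyde dehydrogenase (chr11:61207537-61212333, mm10), had 4479 in OvSvK day 4 and 4312 in OSK day 7, against 2 in mESC and 13 in MEF, and 12 in GFP day 7. Ano1, a calcium-activated chloride channel, had 2972 in OvSvK day 4 and 5296 in OSK day 7, against 2 in mESC and 225 in MEF. Nt5e, the surface enzyme that makes adenosine, had 4178 in OvSvK day 4 and 8022 in OSK day 7, against 13 in mESC and 186 in MEF. Aldh3a1 was thus near absent in both re-analysed libraries and in GFP day 7, whereas Ano1 and Nt5e had a MEF level. Adh7, an alcohol dehydrogenase, had 3132 in OvSvK day 4 and 1430 in OSK day 7, against 1 in mESC, and Crym, a binder of thyroid hormone, had 1248 in OvSvK day 4 and 1726 in OSK day 7, against 0 in mESC. The adult skeletal myosin Myh2 had 2266 in OvSvK day 4 and 1286 in OSK day 7, against 0 in mESC, and Myh1 had 1000 in OvSvK day 4 and 4852 in OSK day 7, against 0 in mESC. Acta1, the skeletal muscle actin, had 1 in OvSvK day 4 and 1 in OSK day 7, against 3 in mESC and 1954 in MEF, and Myh8, a perinatal myosin, had 6 in OvSvK day 4 and 46 in OSK day 7, against 13 in mESC. Pkp1, Avil, Cdh13, Apol9a, Kif1a, Gbp3, Spry4 and Tgtp1 complete the list of 15.

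In a smaller set the end points disagreed. OvSvK day 4 was within 1.5-fold of mESC and OSK day 7 at least 4-fold lower for 88 genes, and 4-fold higher for 57. OSK day 7 was within 1.5-fold and OvSvK day 4 at least 4-fold lower for 14 genes, and 4-fold higher for 56. Cbl, a ubiquitin ligase that turns off growth factor receptors, had 1204 in OvSvK day 4 and 32 in OSK day 7, against 1058 in mESC. Igdcc3 had 252 in OvSvK day 4 and 3 in OSK day 7, against 280 in mESC. Fcgbp had 11 in OvSvK day 4 and 558 in OSK day 7, against 5 in mESC, and Arhgap36 had 2 in OvSvK day 4 and 403 in OSK day 7, against 1 in mESC. They lay on opposite sides of mESC, each at least 2-fold away, for 23 genes with OvSvK day 4 above and 22 with OSK day 7 above. Lin28a, the repressor of let-7 microRNAs, had 1266 in OvSvK day 4 and 57 in OSK day 7, against 196 in mESC and 0 in MEF. Alpl, the alkaline phosphatase used to stain pluripotent colonies, had 954 in OvSvK day 4 and 6761 in OSK day 7, against 5804 in mESC. The end points also differ in day and in factors, so these cannot be told apart.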

How the data were processed

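RNA was measured by sequencing of TruSeq libraries, per the labels' protocols. The submitters' processing notes name RSEM 1.2.4 with mm10 for 20 libraries, and for mESC and MEF RSEM 1.1.21 with mm9. How scores were made from these is not stated there. The table deposited by the authors for the whole series holds whole numbers whose distribution is identical in all 22 columns (maximum 58542). They were read as a quantile-normalized score, although the table is named CPM by the authors. Expected counts deposited by the authors, per the file headers, exist here for the 20 libraries of fibroblasts (7872278 to 20720724 per library, 24130 genes) and were used for depth, for CPM and for re-made scores. Ranks of scores and counts correlated across genes at 0.984 (Spearman) in OvSvK day 4 and 0.978 in OSK day 7. mESC and MEF have scores only, so no count test was used.

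Differences, calls and counts were computed with python 3.11.15, numpy 2.4.6, pandas 2.3.3 and scipy 1.17.1, and plotted with matplotlib 3.10.9. The pseudocount was 10, the floor 100 and the fold 2. The calling rule was tested on data simulated from the mESC scores, with known folds and counting noise alone. Such data hold no variation between cultures, libraries or software, so the error of the rule on the real libraries was not tested. Coordinates are those of mm10: 12810 identifiers were in the GENCODE annotation of that build. Promoters came from a RefSeq table of GRCm38, matched by symbol and nearest start. Those printed had their first transcribed bases in an annotated transcript, lay within 100 bases of the table's start and were not of genes with near copies. The printed promoters of interferon response genes also had to hold a match. CPM values have 95% Poisson intervals, and a count of 0 was given a limit of 3 counts.

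The comparison and the 35 gene lists were chosen with earlier results of these data known. Genes were named by rule: Pou5f1, Sox2, Klf4 and Nanog, the 15 largest nearer differences per direction, up to 6 called and 3 uncalled members per list, and 5 per direction of genes in which the end points differ or both re-analysed libraries stand apart. Lin28a, Dnmt3b, Xist, Ddx3y and other list members outside the rule were chosen after their values were seen. Tried alternatives were other pseudocounts, floors and folds, the mean of both end points, end points re-made from expected counts, centring by GC content, leaving out the 14 genes in which mESC and MEF stand apart, and removing per gene the gap between MEF and the mean of the GFP libraries. That gap also holds what transfection and days in culture did. Results for some genes are not reported here.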

Additional observations from a re-analysis of the deposited data

Results flagged for a closer look

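In 2 named genes the end points lay on opposite sides of mESC. The difference between the end points was not tested, since each is 1 library. Lin28a, the repressor of let-7 microRNAs, was higher than mESC by 2.63 on the log2 scale in OvSvK day 4 and lower in OSK day 7 (-1.62). Mapt, the neuronal microtubule protein tau, was lower than mESC in OvSvK day 4 (-1.95) and higher by 1.59 in OSK day 7, with scores of 240 in OvSvK day 4 and 2898 in OSK day 7, against 956 in mESC and 14 in MEF.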

How the results depend on the processing

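No paired analysis was possible because each group is 1 library and no test was made. Of the recomputed totals 39 stayed within 1.5 times the value given and 5 did not. The lower genes fell to 895 with a floor of 300 and to 536 at a fold of 4, and the higher genes to 794 at a fold of 4. Fibroblast genes at the mESC level in both end points numbered 213, against 360, with the gap between MEF and the GFP libraries removed. The genes in which mESC and MEF stand apart numbered 7, against 14, at a pseudocount of 50. Removing that gap also turned 8 named genes round, to 0.16 for Egr2, 1.44 for Egr1, -0.9 for Il33, -1.42 for Axin2, 0.86 for Trib3, 0.4 for Chac1, -1.84 for Prl2c2 and -0.19 for Entpd1. The cause was not tested. Over all alternatives, the differences of the 193 called named genes kept direction and call in 1805 cases and lost the call in 110, and counts of list members stayed within 1.5 times in 501 cases and moved in 119. The mESC level of every gene rests on 1 library of unknown depth, processed with other software than the end points.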
